A study of Homo sapiens with 6 samples.

Results

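Epithelial-mesenchymal transition (EMT) is the programme by which epithelial cells lose their junctions and take on a motile, matrix-producing state. The 10 genes described here are its standard regulators and markers, chosen by symbol: the transcription factors SNAI1, SNAI2, ZEB1, ZEB2 and TWIST1, the cadherins CDH1 and CDH2, the intermediate filament gene VIM, and the matrix genes FN1 and SPARC. All 10 were found among the 17721 genes of the deposited table. After the low-count filter 7 of them were tested, and CDH1, CDH2 and TWIST1 fell below it.

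The 6 RNA-seq libraries were made from MDA-MB-231BR, a brain-tropic derivative of MDA-MB-231, a triple-negative human breast cancer line. Of the 6 libraries, 3 came from cells stably carrying control shRNA and 3 from cells stably carrying shRNA against ACSS2. ACSS2 is the enzyme that makes acetyl-CoA from acetate outside mitochondria. Both kinds of shRNA were delivered by virus made in HEK-293T cells, followed by antibiotic selection. The cells were grown as monocultures in serum-containing medium. The labels call the libraries of each group biological replicates and number them 1 to 3 in both groups under a batch tag. The sample titles write this number directly after the word shRNA (shRNA1 to shRNA3). The number of hairpin sequences is not stated in the labels, so hairpin and replicate number cannot be told apart. All libraries come from 1 cell line.

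SNAI1, SNAI2, ZEB1, ZEB2 and TWIST1 are known as repressors of epithelial genes that bind short E-box sequences, with CDH1 (E-cadherin, the adhesion molecule of epithelial junctions) as their best known target. Cells that pass through EMT typically exchange CDH1 for CDH2 (N-cadherin), and raise VIM (vimentin), FN1 (fibronectin, a scaffold of the extracellular matrix) and SPARC (a secreted collagen-binding protein). TGF-beta signalling through SMAD proteins is a classical inducer of the programme. MDA-MB-231 is widely used as a line that already sits at the mesenchymal end, and the cells compared here derive from it.

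Where 3 values are given for a group, they stand in the order of replicates 1, 2 and 3. Total counts were between 15048275 and 18608124 per library. ACSS2 itself had 76.2, 71.2 and 164 CPM (read counts scaled to a common library size with TMM factors) with control shRNA against 11.1, 50.5 and 88.6 CPM with its own shRNA. The groups overlapped, since ACSS2 shRNA replicate 3 lay above control replicates 1 and 2, and in all 3 pairs the knockdown library had less ACSS2. ACSS2 differed by -1.05 on the log2 scale (SE 0.64, edgeR adjusted p = 0.504) in the fit without the replicate number, called unpaired below. It was -1.31 (SE 0.30, adjusted p = 0.00757) in the fit with the replicate number as a block, called paired. A gene passed at an adjusted p under 0.05, and every fold change sets ACSS2 shRNA cells over control cells.

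FN1, ZEB2 and SPARC are the members that rose in the paired fit, so the 250 bases before their annotated starts are shown, on the gene's strand, from RefSeq on GRCh38.p14. Such windows were found for 6 of the 10 genes (VIM, FN1, CDH2, ZEB1, ZEB2 and SPARC). They were searched on both strands for CAGGTG (the E-box of SNAI and ZEB factors), CAGAC (SMAD), TGANTCA (AP-1), CATTCC (TEAD) and TGACGTCA (cAMP response element). Capitals mark each match.
FN1, chr2:215436069-215436318, minus strand: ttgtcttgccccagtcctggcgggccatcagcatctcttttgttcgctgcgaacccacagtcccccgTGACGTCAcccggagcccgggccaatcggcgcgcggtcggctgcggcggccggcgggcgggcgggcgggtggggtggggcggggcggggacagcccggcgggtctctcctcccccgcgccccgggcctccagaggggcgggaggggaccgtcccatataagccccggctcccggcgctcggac
ZEB2, chr2:144520120-144520369, minus strand: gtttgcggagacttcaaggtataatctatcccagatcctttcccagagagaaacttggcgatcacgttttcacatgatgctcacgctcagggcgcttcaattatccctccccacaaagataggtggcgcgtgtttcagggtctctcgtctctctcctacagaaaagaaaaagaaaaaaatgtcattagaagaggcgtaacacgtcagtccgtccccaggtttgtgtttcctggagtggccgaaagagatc
SPARC, chr5:151686916-151687165, minus strand: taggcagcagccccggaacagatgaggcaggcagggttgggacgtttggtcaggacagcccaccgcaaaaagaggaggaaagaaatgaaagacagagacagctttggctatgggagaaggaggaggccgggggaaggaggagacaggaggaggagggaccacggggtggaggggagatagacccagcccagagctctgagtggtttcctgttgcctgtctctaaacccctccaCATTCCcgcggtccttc
The FN1 window holds 1 cAMP response element, at -183 from the start, and the SPARC window holds 1 CATTCC at -17. No match of the 5 motifs lies in the ZEB2 window or in that of VIM, and none of the 3 windows shown holds CAGGTG or CAGAC. ZEB1 and CDH2 have several annotated starts each: CAGGTG lies in windows of ZEB1, CAGAC in other windows of ZEB1 and in both of CDH2, and TGANTCA in 1 of CDH2. Over all 35116 RefSeq windows of this length, 17.5% hold CAGGTG, 38% CAGAC, 6.57% TGANTCA, 11.9% CATTCC and 1.65% TGACGTCA. The sequences of these 3 genes therefore share none of the motifs searched. A match is a description of letters and not of binding.

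In both groups VIM was high and CDH1 nearly absent, but the marker set as a whole was mixed. CDH2, TWIST1 and SPARC, which also belong to the mesenchymal side, had control means of 0.0867, 0 and 0.773 TPM. VIM was the 18th most abundant transcript of the table in control libraries, with 5523, 5468 and 5450.5 TPM (the authors' scale, corrected for transcript length and library total) in replicates 1, 2 and 3. CDH1 had 0 counts in all 3 control libraries and in ACSS2 shRNA replicates 1 and 2, and 2 counts in ACSS2 shRNA replicate 3. A count of 0 had an upper limit of 0.198 to 0.245 CPM by library (95% exact interval, counting error only). The 2 counts of ACSS2 shRNA replicate 3 are 0.121 CPM, with an upper limit of 0.437 CPM by the same interval. These CPM values for CDH1 were scaled by library total alone, without TMM factors. CDH1 was thus at or near absence in all 6 libraries. No fold is given for it. TWIST1 had 0 counts in every library.

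CDH2, the cadherin usually gained in EMT, was also close to absent. It had 2, 3 and 3 counts with control shRNA against 2, 0 and 1 counts with ACSS2 shRNA. Summed over libraries, the ratio of ACSS2 shRNA to control was 0.394 (95% exact interval 0.0673 to 1.64, counting error only), an interval that includes equal levels. Other cadherin genes were expressed. CDH11 (cadherin 11, a mesenchymal cadherin) stood at 69.8 TPM and CDH4 (R-cadherin) at 40.3 TPM in control libraries, against 0.0867 TPM for CDH2 and 1.97 TPM for the epithelial cadherin gene CDH3. These 3 cadherin genes were singled out after their values were seen. By the authors' annotation on GRCh38, CDH1 (gene ID 999) lies on chromosome 16, 68711240 to 68835542. CDH2 (gene ID 1000) lies on chromosome 18, 27921604 to 28190003, and TWIST1 (gene ID 7291) on chromosome 7, 18966583 to 19117705. Gene spans given here and below are the authors' and can reach beyond the RefSeq start of a gene.

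Among the transcription factors, SNAI1 had the highest control mean at 45.6 ± 21.3 TPM (SD, n = 3), followed by SNAI2 at 29.3 ± 10.2, ZEB1 at 16.04 ± 4.78 and ZEB2 at 2.96 ± 0.248 TPM. FN1 lay among them at 33.0 ± 7.49 TPM and SPARC below all at 0.773 ± 0.480 TPM. The libraries of SNAI1, FN1 and SNAI2 overlapped with one another, as did those of SNAI2 and ZEB1, so their order is not separated by the replicates. The steps from ZEB1 to ZEB2, from ZEB2 to SPARC and from SPARC to CDH2 had no overlap between control libraries. In ACSS2 shRNA cells the means were 66.8 ± 24.8 TPM for FN1, 41.3 ± 20.0 for SNAI2, 39.8 ± 16.7 for SNAI1, 16.4 ± 4.10 for ZEB1, 4.73 ± 1.06 for ZEB2 and 1.84 ± 0.312 for SPARC.

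**Figure D1:**
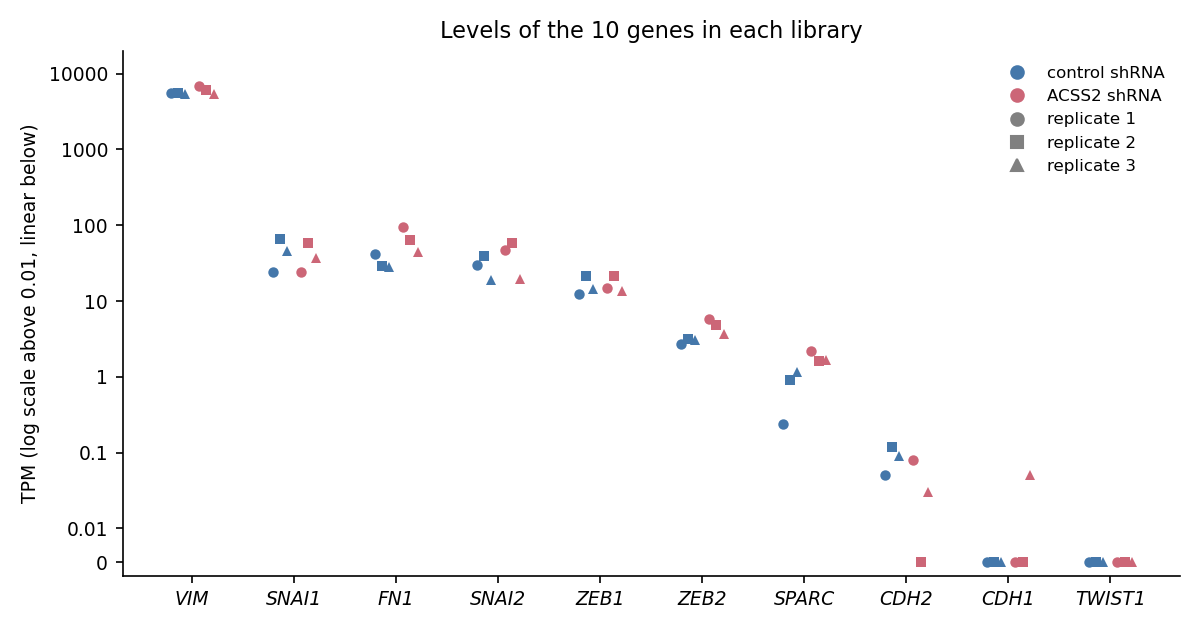
TPM of each of the 10 genes (horizontal axis, ordered by control mean) in the 3 control shRNA (blue) and 3 ACSS2 shRNA (red) libraries, with marker shapes for replicate numbers 1, 2 and 3. The vertical axis is logarithmic above 0.01 TPM and linear below. VIM lies between 5449 and 6819.7 TPM in all 6 libraries, while CDH1 and TWIST1 lie at 0 in all libraries except 1 CDH1 value.

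With the replicate block, FN1, ZEB2 and SPARC rose in ACSS2 shRNA cells, none of the 7 tested members fell, and VIM, ZEB1, SNAI1 and SNAI2 did not pass. FN1 rose 1.82-fold, SPARC 2.35-fold from a very low level and ZEB2 1.46-fold. In bulk RNA, a change in the share of cells that express a gene and a change in RNA per cell cannot be told apart. The 3 of 7 that rose stand beside a background of 12.7% of all 13003 tested genes called higher in the paired fit. The background was 12.4% called lower and 25.1% in either direction. The members were chosen with earlier results of these data known, so this comparison is a description and not a test. In the unpaired edgeR fit no member passed, where 0.0692% of all genes did (0.0231% higher and 0.0461% lower), and 2 of the 7 had an unadjusted p under 0.05 (FN1 and ZEB2). DESeq2 and limma without the block called none of the 7 either. In the paired fit 2 members that did not pass had an unadjusted p under 0.05, SNAI2 higher (0.0316) and SNAI1 lower (0.0343). Of all 13003 tested genes, 1820 had an unadjusted p under 0.05 in the unpaired edgeR fit and 4944 in the paired one.

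FN1 (gene ID 2335, chromosome 2, 215319808 to 215551781 on GRCh38, band 2q35) had 199, 128 and 135 CPM with control shRNA against 389, 264 and 202 CPM with ACSS2 shRNA. Every ACSS2 shRNA library lay above every control library, with replicate 1 highest in both groups. Means were 154 ± 39.0 CPM (SD, n = 3) and 285 ± 95.1 CPM. The log2 fold change was 0.87 (SE 0.12, adjusted p in edgeR = 0.000539) paired and 0.89 (SE 0.28, adjusted p = 0.217) unpaired. It passed the paired fit without any 1 of the replicate numbers, at 0.81 without replicate 1, 0.74 without replicate 2 and 1.01 without replicate 3. Measured within each library as a percentage of VIM, which is free of the scaling between libraries, FN1 TPM was 0.753%, 0.531% and 0.519% with control shRNA against 1.37%, 1.05% and 0.812% with ACSS2 shRNA.

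SPARC (gene ID 6678, chromosome 5, 151661096 to 151687054, band 5q33.1) rested on few reads, 9, 31 and 38 counts with control shRNA against 73, 48 and 55 counts with ACSS2 shRNA. In CPM this was 0.512, 1.77 and 2.45 against 4.06, 3.01 and 3.41. The groups did not overlap, and control replicate 1 was the lowest library while its ACSS2 shRNA partner was the highest. The log2 fold change was 1.24 (SE 0.38, adjusted p in edgeR = 0.0319) paired and 1.15 (SE 0.51, adjusted p = 0.365) unpaired. It depended on replicate 1: without it the paired value was 0.61 (adjusted p = 0.169), against 1.45 without replicate 2 and 1.70 without replicate 3, both of which passed. In limma on log2 TPM with the block SPARC passed at 1.34 with a pseudocount of 0.1 and at 0.71 with a pseudocount of 1.

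ZEB2 (gene ID 9839, chromosome 2, 144377343 to 144521432, band 2q22.3), a two-handed zinc finger repressor, had 14.8, 15.9 and 16.8 CPM with control shRNA against 27.5, 23.2 and 19.2 CPM with ACSS2 shRNA. The control libraries lay close together and the ACSS2 shRNA libraries all lay above them, replicate 1 the furthest. The paired log2 fold change was 0.55 (SE 0.15, adjusted p in edgeR = 0.0195) and the unpaired one 0.56 (SE 0.20, adjusted p = 0.271). ZEB2 did not pass the paired fit without replicate 1 (0.36, adjusted p = 0.101) or replicate 2 (0.51, adjusted p = 0.0858), and passed it without replicate 3 (0.72, adjusted p = 0.00318). In each of the 3 genes the groups did not overlap with ACSS2 shRNA higher, a pattern seen in 10.7% of all tested genes; no tested member showed the reverse pattern, which 9.62% of all tested genes had.

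ZEB1 (gene ID 6935, chromosome 10, 31318495 to 31529814), the paralog of ZEB2 with the same kind of DNA-binding domains, did not pass, and its difference from ZEB2 was not tested. It had 43.9, 70.5 and 50.3 CPM with control shRNA against 45.8, 65.3 and 46.0 CPM with ACSS2 shRNA, so the groups overlapped and replicate 2 was highest in both. The paired log2 fold change was -0.06 (SE 0.11, adjusted p in edgeR = 0.728) and the unpaired one -0.07 (SE 0.23, adjusted p = 0.927). On the TPM scale its sign turned (0.05 with a pseudocount of 0.1). Within libraries the ratio of ZEB1 to ZEB2 TPM was 4.63, 6.83 and 4.65 with control shRNA against 2.56, 4.35 and 3.73 with ACSS2 shRNA. The ratio was thus lower in every ACSS2 shRNA library than in every control library.

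**Figure D2:**
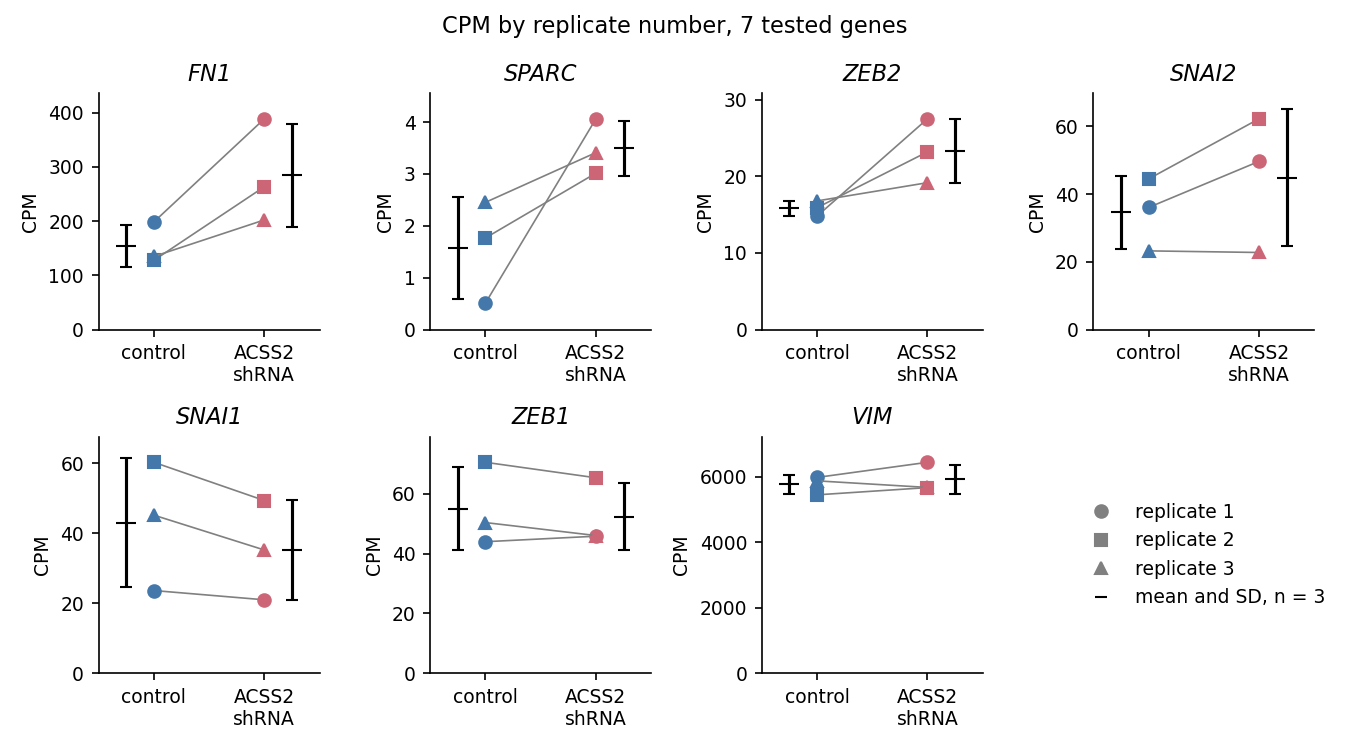
CPM of the 7 tested genes in control shRNA (blue, left) and ACSS2 shRNA (red, right) libraries, with a line joining libraries of the same replicate number and black bars for mean and SD (n = 3); every vertical axis starts at 0. Lines for FN1, SPARC and ZEB2 all rise, those for SNAI1 all fall, and those for VIM, ZEB1 and SNAI2 go both ways.

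SNAI1 and SNAI2, the paralogs known as Snail and Slug, had fold changes of opposite sign, and neither passed in edgeR with all libraries. The unpaired sign of SNAI1 turned without control replicate 2 (0.0065). SNAI1 (gene ID 6615, chromosome 20, 49982976 to 50002214) had 23.6, 60.3 and 45.2 CPM with control shRNA against 20.98, 49.4 and 35.2 CPM with ACSS2 shRNA. In CPM it was lower in all 3 pairs, a pattern of 27.3% of all tested genes, while in TPM pair 1 was slightly higher with ACSS2 shRNA (24.5 against 24.05). In CPM the groups overlapped because replicate 1 was low and replicate 2 high in both. The log2 fold change was -0.28 (SE 0.12, adjusted p in edgeR = 0.1003) paired and -0.29 (SE 0.39, adjusted p = 0.786) unpaired.

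SNAI2 (gene ID 6591, chromosome 8, 48917677 to 48921440) had 36.0, 44.5 and 23.2 CPM with control shRNA against 49.6, 62.2 and 22.8 CPM with ACSS2 shRNA. It was higher in pairs 1 and 2 and nearly level in pair 3. The paired log2 fold change was 0.32 (SE 0.13, adjusted p in edgeR = 0.0946) and the unpaired one 0.38 (SE 0.37, adjusted p = 0.705). SNAI2 passed the paired fit once replicate 3 was left out (0.47, adjusted p = 0.0267) and in limma's fit to log2 TPM values (0.41, adjusted p = 0.0416, pseudocount 0.1). The TPM ratio of SNAI2 to SNAI1 was 1.22, 0.592 and 0.413 with control shRNA against 1.90, 1.01 and 0.519 with ACSS2 shRNA, higher in the ACSS2 shRNA library of each pair with overlapping groups.

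VIM (gene ID 7431, chromosome 10, 17124429 to 17244904), the most abundant of the set, had 5974, 5443 and 5869.7 CPM with control shRNA against 6436, 5664 and 5669 CPM with ACSS2 shRNA. The groups overlapped and the pairs went both ways. The paired log2 fold change was 0.04 (SE 0.15, adjusted p in edgeR = 0.877) and the unpaired one 0.04 (SE 0.16, adjusted p = 0.945).

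**Figure D3:**
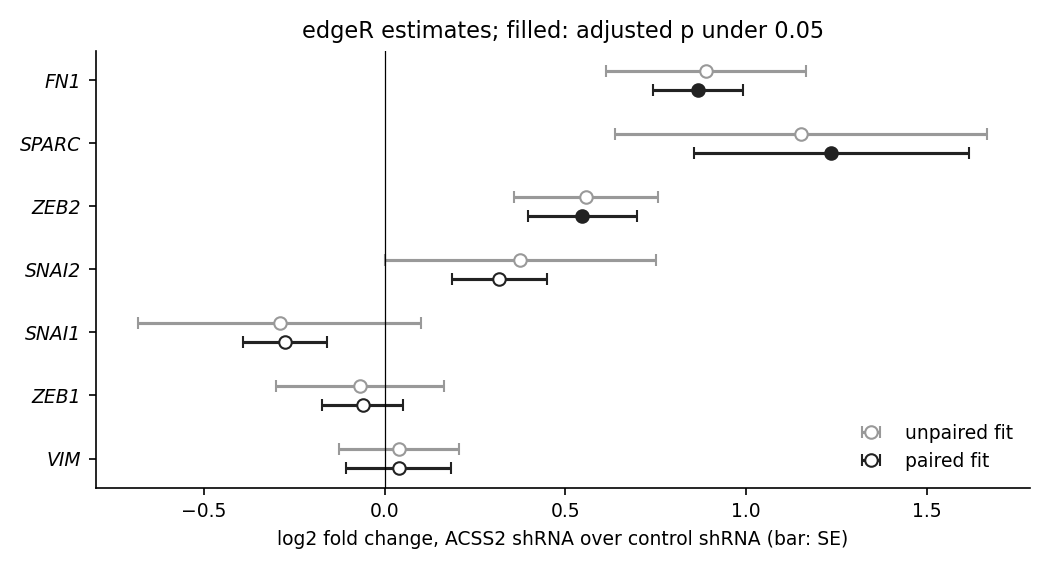
Log2 fold changes of the 7 tested genes (rows) with bars for 1 SE, from the unpaired (grey) and the paired (black) edgeR fit; filled points passed at an adjusted p under 0.05. Both fits place each gene at nearly the same value, and the paired SE is the smaller one; FN1, SPARC and ZEB2 are filled in the paired fit only.

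The replicate number itself moved several members. Its F test in the paired edgeR fit passed for FN1 (adjusted p = 0.00432), SNAI1 (0.000149), SNAI2 (0.000530) and ZEB1 (0.00801), and did not pass for VIM, ZEB2 and SPARC (0.727, 0.686 and 0.547). That is 4 of 7, where 38.7% of all tested genes passed. SNAI1, SNAI2 and ZEB1 were highest in replicate 2 in both groups, and FN1 in replicate 1. In the authors' deposited table, made with DESeq2 per its column names, the log2 fold changes were 0.86 for FN1 (q = 0.115), 1.13 for SPARC (q = 0.370) and 0.53 for ZEB2 (q = 0.291).

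Other genes of the programme were taken from 9 lists with 147 distinct tested genes, none of them among the 10. The lists were chosen with earlier results of these data known. Their counts beside the background are therefore a description and not a test. In unpaired edgeR 0 of the 147 passed, 33 had an unadjusted p under 0.05, DESeq2 called 13 and limma on log2 TPM 0. Over all genes, unpaired edgeR called 9 of 13003 and had 1820 at an unadjusted p under 0.05. Unpaired DESeq2 called 487 of 12962 and unpaired limma 12 of 13003. The counts below are from the paired fit and stand beside its 12.7% higher and 12.4% lower over all genes (1657 and 1608 of 13003). That background moved in the alternatives. Without replicate 1 it was 1382 higher and 1383 lower of 13108. Without replicate 2 it was 664 and 917 of 13061, and without replicate 3 it was 1555 and 1554 of 13084. Paired limma on log2 TPM called 2269 higher and 1055 lower of 13003 (pseudocount 0.1), or 2302 and 1071 (pseudocount 1). Paired DESeq2 called 1119 and 1390 of 12967. The median log2 fold change over all genes was 0.02.

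Of the 27 genes of TGF-beta signalling, all tested, 10 rose, none fell and 17 did not pass, with a median log2 fold change of 0.15; 1 gene was lower at an unadjusted p under 0.05. The leading ones were PMEPA1, a feedback inhibitor induced by TGF-beta, and LTBP3, which holds latent TGF-beta in the matrix. PMEPA1 had 3.70, 2.28 and 2.71 CPM with control shRNA against 15.1, 6.34 and 6.01 CPM with ACSS2 shRNA, and rose by 1.59 (SE 0.22, edgeR adjusted p = 0.000415) on the log2 scale. LTBP3 went from 65.1 ± 54.0 to 148 ± 68.9 CPM (SD, n = 3), with overlapping groups, and rose by 1.40 (SE 0.19, adjusted p = 0.000404).

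The other 8 that rose, listed after their values were seen, cover ligand, receptor, transducer and feedback roles. The ligand gene TGFB1 rose by 0.51 and the type II receptor gene TGFBR2 by 1.14 on the log2 scale. The receptor-activated SMAD3 rose by 0.39 and the inhibitory SMAD7 by 1.34. LTBP1 rose by 1.11 and LTBP2 by 1.28, the pseudoreceptor gene BAMBI by 0.60 and the corepressor TGIF1 by 0.61. TGFBR2 had 379, 253 and 287 CPM with control shRNA against 925, 623 and 505 CPM with ACSS2 shRNA, without overlap. The groups did not overlap for TGFB1, LTBP1 and LTBP2 either, but overlapped for SMAD3, SMAD7, BAMBI and TGIF1. The known target gene CTGF (also called CCN2) did not pass, at -0.10. Leaving out 1 replicate number left 9, 9 or 12 genes higher and none lower.

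Of the 11 tested genes among binding partners of fibronectin and SPARC and matrix genes near them, 4 rose, none fell (0 also at an unadjusted p under 0.05 in edgeR) and 7 did not pass, with a median of 0.36. Transglutaminase TGM2, which cross-links fibronectin, had 3.53, 1.03 and 4.00 CPM with control shRNA against 8.23, 10.7 and 22.9 CPM with ACSS2 shRNA (log2 fold change 2.27, SE 0.30, edgeR adjusted p = 0.000277). Its highest library was ACSS2 shRNA replicate 3, unlike FN1. The integrin subunit gene ITGB3, part of a fibronectin and vitronectin receptor, went from 13.3 ± 11.5 to 31.0 ± 20.1 CPM, with overlapping groups (1.32, SE 0.18, adjusted p = 0.000404). Without replicate 2 the count was 2 higher.

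Of 24 tested mesenchymal markers 8 rose, 3 fell and 13 did not pass, with a median of 0.24. TGFBI, a secreted matrix protein named for its induction by TGF-beta, went from 25.2 ± 19.4 to 97.6 ± 75.6 CPM with overlapping groups (log2 fold change 1.92, SE 0.18, edgeR adjusted p = 5.0e-05). The fibrillar collagen gene COL5A1 had 76.0, 54.1 and 58.7 CPM with control shRNA against 194, 152 and 118 CPM with ACSS2 shRNA, without overlap (1.28, SE 0.12, adjusted p = 5.05e-05). The hyaluronan receptor CD44 fell from 781 ± 41.8 to 529 ± 60.1 CPM, without overlap (-0.57, SE 0.12, edgeR adjusted p = 0.00598). The smooth muscle actin gene ACTA2 fell from 15.1 ± 5.02 to 8.43 ± 4.84 CPM, with overlapping groups (-0.94, SE 0.18, adjusted p = 0.00327). The fibrillar collagen gene COL1A1 and the microfibrillar collagen genes COL6A1 and COL6A2, named after their values were seen, rose by 1.22, 0.99 and 0.74 on the log2 scale. Markers of the list thus moved both ways. Without replicate 2 the count was 6 higher and 1 lower.

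Genes of the epithelial side were called in both directions in edgeR. Of 19 tested epithelial markers 4 rose, 2 fell and 13 did not pass, with a median of 0.06. The mucin gene MUC1 went from 3.59 ± 1.98 to 7.29 ± 0.275 CPM (1.11, SE 0.25, edgeR adjusted p = 0.00748) and the tight junction gene CLDN4 from 24.0 ± 4.58 to 46.1 ± 6.01 CPM (0.95, SE 0.15, adjusted p = 0.00106). LLGL2, a cell polarity gene, fell by 0.50 and the desmosomal plakin gene DSP by 0.38 on the log2 scale. In the paired limma fits to log2 TPM 4 were higher and 0 lower, and without replicate 2 the edgeR count was 2 higher and 1 lower. The keratin genes KRT8, KRT18 and KRT19, singled out after their values were seen, stood at 427, 293 and 428 TPM in control libraries. The other keratin genes of the list, KRT7, KRT14 and KRT5, had control means of 8.15, 1.45 and 0 TPM, and EPCAM had 3.12 TPM. Some simple keratin mRNA was thus present beside VIM, with CDH1 at or below 2 counts.

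Of 10 tested epithelial gatekeepers, factors that hold cells in the epithelial state, 1 rose, 2 fell and 7 did not pass (median 0.00). ELF3 rose by 1.04 on the log2 scale (4.35 ± 1.67 to 8.91 ± 3.00 CPM). EHF fell by 1.44 (1.99 ± 0.369 to 0.756 ± 0.368 CPM) and GATA3 by 0.95 (5.07 ± 0.266 to 2.66 ± 0.742 CPM). EHF rested on few reads, with a control mean of 0.633 TPM. Without replicate 2 no gatekeeper was called higher and 2 were called lower. GRHL2, a defining factor of the epithelial state, had 0 counts in all 6 libraries. OVOL1, OVOL2 and GRHL3 were below the filter.

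Among 16 other tested transcription factors linked to EMT, 3 rose, 4 fell and 9 did not pass, with a median of 0.01. SOX4 had 34.5, 24.2 and 24.2 CPM with control shRNA against 75.6, 63.0 and 48.1 CPM with ACSS2 shRNA (log2 fold change 1.17, SE 0.12, edgeR adjusted p = 9.66e-05). HMGA2, an architectural chromatin protein, had 51.3, 44.7 and 86.2 CPM against 153, 123 and 112 CPM (1.14, SE 0.19, adjusted p = 0.00118). Both were without overlap. The AP-1 subunit gene FOSL1 had 1346, 1566 and 2886 CPM with control shRNA against 846, 938 and 1322 CPM with ACSS2 shRNA, and fell by 0.84 (SE 0.14, adjusted p = 0.00124). TEAD1, a DNA-binding partner of YAP, fell by 0.38 (SE 0.13, adjusted p = 0.0434). Without replicate 2 or 3 the count was 2 higher and 1 lower, and in the paired limma fits to log2 TPM it was 3 higher and 1 lower.

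Of 23 tested partners and turnover factors of SNAI and ZEB proteins, 3 rose, 1 fell and 19 did not pass, with a median of 0.07. BTRC, a ubiquitin ligase subunit that marks SNAI1 protein for degradation, went from 25.4 ± 2.55 to 41.1 ± 6.96 CPM (log2 fold change 0.69, SE 0.12, edgeR adjusted p = 0.00160). The kinase gene LATS2 rose by 0.52 and the arginine methyltransferase gene PRMT5 fell by 0.44 on the log2 scale. Without replicate 2 the count was 2 higher and 0 lower, and in the paired limma fits to log2 TPM it was 6 or 7 higher and 1 lower. The corepressor genes HDAC1, HDAC2, KDM1A, CTBP1 and CTBP2 were among those that did not pass. RNA levels say nothing of SNAI1 protein, which was not measured here.

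Of 11 tested cadherin and catenin genes 2 rose, 1 fell and 8 did not pass, with a median of -0.18. CTNNB1 (beta-catenin) went from 242 ± 46.1 to 329 ± 47.8 CPM (log2 fold change 0.45, SE 0.11, edgeR adjusted p = 0.0119) and the armadillo gene ARVCF rose by 0.65. CTNNBIP1, an inhibitor of beta-catenin and TCF binding, went from 37.9 ± 4.21 to 17.9 ± 2.93 CPM (-1.09, SE 0.14, adjusted p = 0.000226). CDH4 had a log2 fold change of -0.22 (adjusted p = 0.275), and CDH11, from the mesenchymal list, one of 0.31 (adjusted p = 0.0653). Without replicate 2 only the fall of 1 gene was left in this list.

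**Figure D4:**
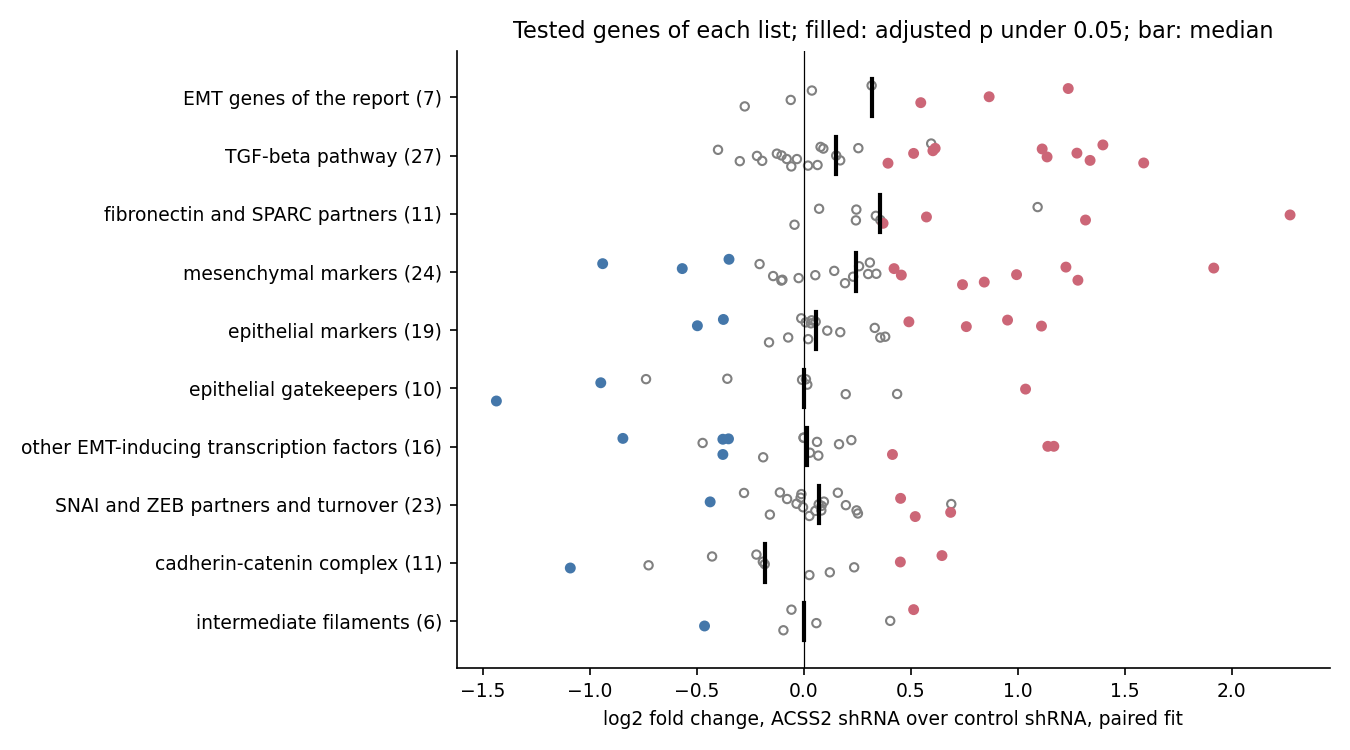
Paired log2 fold changes of the tested genes of each list (rows, number tested in brackets), with red and blue points for genes that rose or fell at an adjusted p under 0.05, open points for the others and a black bar for the median. The rows for TGF-beta signalling and for fibronectin and SPARC partners hold no blue point, while mesenchymal and epithelial markers hold both colours.

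Markers of other cell types were read beside these results. Fibroblast-type matrix genes of the mesenchymal list lay at both ends. POSTN had 0 counts in all libraries, and COL1A2, COL3A1, LUM and DCN had control means of 0, 0.030, 0 and 0.010 TPM, while COL6A2, COL6A1, LOX and COL1A1, which rose, had 108, 81.7, 57.4 and 4.99 TPM. These 9 genes were singled out after their values were seen. Of 8 endothelial markers 4 were tested, and CDH5 and KDR rose in the paired edgeR fit. The summed endothelial level was 3.98 to 9.22 TPM in control and 8.15 to 13.9 TPM in ACSS2 shRNA libraries, with CLDN5 and EMCN at 0 in control. Of 8 leukocyte markers 2 were tested, and CD14 rose from a level of 2.03 TPM, while PTPRC, which marks all leukocytes, had a control mean of 0.110 TPM. The summed leukocyte level was 384 to 891 TPM in control and 416 to 820 TPM in ACSS2 shRNA libraries, nearly all of it CD68. Of 10 luminal breast markers 8 were tested, AGR2 rose by 0.84 and GATA3 fell by 0.95 on the log2 scale. Their control means ran from 0.130 TPM for PGR and 0.677 TPM for ESR1 to 427 TPM for KRT8, and only PGR and ESR1 were below 1 TPM. Without replicate 2 the paired fit called 1 endothelial marker higher and no leukocyte or luminal marker higher. The part of these marker genes in the rise of FN1, SPARC and ZEB2 was not tested.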

How the data were processed

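The authors deposited 1 gene table of 6 libraries with expected counts (estimated reads per gene), TPM, and their own comparison as a log2 fold change with p-value and q-value, named DESeq2 per the file headers. Per the submitters' processing notes, HISAT, Bowtie2 and RSEM were used, with no version or annotation given. The table's chromosome accessions belong to GRCh38. Gene spans are as deposited and need not match RefSeq: that of FN1 ends at 215551781, beyond its RefSeq window at 215436069 to 215436318. Before use, 565 lines of spilled annotation text were left out, and 26 symbols turned into dates were restored from gene IDs. Expected counts were rounded and tested in edgeR 4.0.16 (R 4.3.3) by its quasi-likelihood method, with TMM factors, filterByExpr (minimum count 10, minimum total 15) and Benjamini-Hochberg adjustment over 13003 genes. The unpaired fit is the main one. The paired fit adds the replicate number as a block: the labels give it as a batch, and deviations from group means correlated by 0.716, 0.494 and 0.740 across genes between libraries of the same number (at least 0.1 was required). SE is the absolute log2 fold change over the square root of F. Alternatives used DESeq2 1.42.0, limma 3.58.1 on log2 TPM with pseudocounts of 0.1 and 1, RLE factors, no filter, and left-out libraries. Scripts were tested on simulated counts. From each list, up to 2 genes with the largest rise and 2 with the largest fall among those called in the paired fit were named. Members and lists were chosen with earlier results of these data known. Some genes stand in more than 1 list. The values of 1 list gene are not reported here.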

Additional observations from a re-analysis of the deposited data

How the results depend on the processing

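The unpaired fit called 9 genes and 0 of the 7 EMT genes tested. With the replicate block 3265 genes and 3 EMT genes (FN1, SPARC and ZEB2) were called. With the block and RLE factors, no filter or DESeq2 the numbers of genes were 3117, 3494 and 2509, with the same 3 EMT genes each time. With the block and limma on log2 TPM they were 3324 and 3373 (pseudocounts 0.1 and 1), with 4 EMT genes, SNAI2 being the fourth. On that scale 68.3% and 68.2% of called genes were higher, against 50.8% in edgeR with the block, and the median over all genes shifted by 0.105 (pseudocount 0.1). Without the block, 39 genes were called with no filter and 487 by DESeq2, none of them an EMT gene. Leaving out 1 library unpaired gave 0 to 6 genes and 0 EMT genes. Leaving out 1 replicate number with the block gave 2765 (without replicate 1), 1581 (2) and 3109 (3) genes, and 1 (FN1, without replicate 1) to 4 EMT genes (without replicate 3).

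FN1, ZEB2, SPARC and SNAI2 kept a positive sign under every alternative run, but not their size. Leaving out 1 library unpaired, they ran from 0.58 to 1.118, 0.41 to 0.68, 0.73 to 1.61 and 0.04 to 0.69, SNAI2 being lowest without the second ACSS2 shRNA library. Of 140 member values under alternatives 12 changed sign, all in genes that did not pass. Leaving out 1 library, unpaired values ran from -0.038 to 0.070 for VIM (negative without control replicate 2, -0.031, and without the first ACSS2 shRNA library), from -0.64 to 0.0065 for SNAI1 (positive without control replicate 2) and from -0.28 to 0.12 for ZEB1. ZEB1 was positive without control replicate 2 and, at 0.0078 and 0.016, without the first and the third ACSS2 shRNA library. With the block VIM was -0.0037 without replicate 1 and -0.0055 without replicate 2. In limma on log2 TPM, with and without the block, ZEB1 was 0.046 and 0.042 (pseudocounts 0.1 and 1). The cause was not tested. Depth limits CDH1, CDH2 and TWIST1, which had at most 3 counts in a library, and SPARC.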

Other observations

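A separate list of intermediate filament genes other than VIM, which includes lamins and the filament linker gene PLEC, was mostly low or level. Keratin genes are not in it and stand among the epithelial markers. Of 6 tested, SYNM (synemin, a partner of vimentin) had 14.7, 8.78 and 6.58 CPM with control shRNA and 25.7, 10.6 and 8.68 CPM with ACSS2 shRNA in replicates 1, 2 and 3, was higher in each pair and rose in the paired fit (log2 fold change 0.51, edgeR adjusted p = 0.0323), with overlapping groups. LMNB2 (lamin B2) fell from 215 ± 64.2 to 152 ± 11.7 CPM (SD, n = 3; -0.46, adjusted p = 0.0222), without overlap. NES (nestin) had a paired log2 fold change of 0.40 and did not pass. Without replicate 1 or replicate 2 neither call was left in the paired fit. DESeq2 and limma with the block called 0 genes of this list higher and 1 lower.

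Among 7 brain cell markers measured, 3 were tested, and all 3 fell in the paired edgeR fit, where 12.4% of all tested genes did. The count was 2 without replicate 1, without replicate 2 and in limma on log2 TPM with the block. SYT1, a synaptic vesicle calcium sensor, had 2.90, 11.3 and 9.75 CPM with control shRNA against 0.890, 3.39 and 4.77 CPM with ACSS2 shRNA (-1.44, SE 0.22, adjusted p = 0.000793). RBFOX3, a neuronal splicing factor, had 2.05, 16.5 and 37.9 CPM against 1.17, 9.67 and 20.6 CPM (-0.82, SE 0.15, adjusted p = 0.00221), and varied more between replicate numbers than between groups. MBP, known as a myelin gene, had a log2 fold change of -0.41 (adjusted p = 0.0220). None of the 3 passed unpaired. The astrocyte markers GFAP and AQP4 were below the filter.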
